A study of Homo sapiens with 6 samples.

Results

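The genes described here are 10 members of the interleukin-1 (IL-1) system: the ligands IL1A, IL1B, IL18 and IL33, the receptor antagonist IL1RN, the receptor chains IL1R1, IL1RAP and IL1RL1, and the receptor-bound kinases IRAK1 and IRAK2. They were taken by symbol from the deposited gene table and held 11 of its 24108 rows. The list was chosen with the shZNF148-against-shCtr differences of these same libraries known, so the members' differences are given as a description. Which member rows passed in the fit of all rows is also given, as a description that is no test of the members. RNA-seq was performed on MDA-MB-231 cells, an established triple-negative breast cancer line. A total of 3 libraries came from cells carrying a lentiviral short hairpin against firefly luciferase (shCtr) and 3 from cells carrying a hairpin against ZNF148 (shZNF148), a zinc finger protein that binds GC-rich DNA. Both groups were transduced for 48 h and selected for 24 h in 0.5 µg/ml puromycin. Each group rests on 1 hairpin in early passage, uncloned cells, so that the effect of the target and of the hairpin itself cannot be told apart.

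IL-1α and IL-1β, the products of IL1A and IL1B, are inflammatory cytokines that bind the same receptor. IL1R1 binds the ligand, IL1RAP joins as the signalling partner, and MYD88 with the IRAK kinases then carries the signal to TRAF6, TAK1 and NF-κB, whose targets include IL6, CXCL8 and the IL-1 genes themselves. IL1RN blocks the receptor, and IL18 and IL33 signal through related receptors, that of IL33 being encoded by IL1RL1. Breast tumour cells are a known source of IL-1, and the cytokine has been studied in invasion and bone metastasis.

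The label of the knockdown was checked first. ZNF148 measured 3.72, 4.36 and 4.30 FPKM, a transcript level corrected for the length of the transcript and the size of the library, in the shCtr libraries and 0.914, 0.282 and 0.834 FPKM in the shZNF148 libraries. The groups did not overlap, and the log2 fold change on log2(FPKM + 1) was -1.63 (SE 0.18, limma adjusted p = 0.0099, n = 3 per group). The adjusted p was 0.0673 without shCtr replicate 1 and 0.0653 without shCtr replicate 3. Replicate 2 of shZNF148 had the lowest ZNF148 value, and it was also the library furthest from the shCtr mean in 7 of the 8 member rows that were expressed, as it was in 71.6% of the 647 rows of the whole table that passed the test. Sequencing depth could only be read relative to shCtr replicate 1, from 0.807 to 1.13, and the number of reads behind a value is unknown. Of 13 markers of breast lines, 8 were expressed, among them VIM from 1507 to 1842 FPKM, and ESR1 was listed at 0 in every library. EGFR fell (log2 fold change -0.61, adjusted p = 0.02), though not without shCtr replicate 1, 2 or 3 or shZNF148 replicate 2, and CD44 was lower by less than 1.5-fold (-0.46, adjusted p = 0.0185). ERBB2, in a row shared with MIR4728, stood at 126 and 125 FPKM in replicate 2 of shCtr and of shZNF148 and between 20.1 and 24.8 FPKM in the other libraries. The leukocyte gene PTPRC stayed at or below 0.115 FPKM. In these bulk samples, fewer cells making a transcript and less of it per cell cannot be told apart.

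The stretches upstream of IL1A and IL1B are shown because these neighbouring genes had the largest differences, and that of IRAK1 because it differed in the other direction. Each is the 250 bases before the gene start in RefSeq (GRCh38.p14), 5′ to 3′ on the gene's strand, with matches to 5 searched words in capitals. For IL1B the 37 bases nearest the start, which GENCODE places inside the gene, are left out of the print. The words were the NF-κB core GGNNNTTCC, the AP-1 word TGANTCA, the C/EBP word TTGCNNAA, the TATA word TATAAA and the C-rich word CCCTCCC, each read on both strands. The IL1A stretch (chr2:112784494-112784743, minus strand) holds a TATA word 239 bases and an AP-1 word 12 bases before the start. RefSeq also gives IL1A a start further downstream, whose stretch (chr2:112784401-112784650, not printed) holds no TATA word, AP-1 words 105 and 55 bases before that start and 42.0% G and C. The IL1B stretch (printed part chr2:112836817-112837029, minus strand) holds a C/EBP word 215 bases and a C-rich word 144 bases before the start. These distances count the 37 bases left out of the print. The IRAK1 stretch (chrX:154019903-154020152, minus strand) holds a C-rich word 127 bases before the start.
IL1A: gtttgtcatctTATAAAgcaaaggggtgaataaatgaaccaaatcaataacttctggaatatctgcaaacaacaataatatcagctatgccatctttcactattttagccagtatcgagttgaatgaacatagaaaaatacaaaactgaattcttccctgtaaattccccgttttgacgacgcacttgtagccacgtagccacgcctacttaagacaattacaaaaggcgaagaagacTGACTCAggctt
IL1B: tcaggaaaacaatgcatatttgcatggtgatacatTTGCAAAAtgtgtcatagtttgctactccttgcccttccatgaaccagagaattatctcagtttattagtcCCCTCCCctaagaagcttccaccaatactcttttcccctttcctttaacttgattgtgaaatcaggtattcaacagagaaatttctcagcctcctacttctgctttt
IRAK1: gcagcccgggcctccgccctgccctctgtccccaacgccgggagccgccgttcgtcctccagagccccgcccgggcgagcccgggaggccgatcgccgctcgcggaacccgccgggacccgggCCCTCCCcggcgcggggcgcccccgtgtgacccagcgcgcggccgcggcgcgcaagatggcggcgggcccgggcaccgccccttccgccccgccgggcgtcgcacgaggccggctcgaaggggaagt

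Among 35116 RefSeq stretches of this length, 10.7% held the TATA word, 6.57% the AP-1 word, 9.05% the C/EBP word, 24.7% the C-rich word and 17.1% the NF-κB core. No NF-κB core was present in these windows of IL1A, IL1B or IRAK1, which says only that the letters are not there. G and C made up 37.6% of the IL1A stretch and 40.0% of the IL1B stretch, against a median of 58.0% over all stretches. IRAK1 had 82.4%, more than 98.6% of all stretches. The stretches of IL1RAP and IRAK2, at 74.8% and 72.0%, were also rich in G and C. RefSeq gives IL1R1 several starts, whose stretches had 76.8%, 52.4%, 50.0% and 39.6%. Those of IL1RN, IL1RL1 and IL33 ran from 33.2% to 59.6%. RefSeq stretches were matched for 9 of the 10 members, the exception being IL18.

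IL1A and IL1B differed most among the members, both being lower in shZNF148. The table lists IL1A in separate rows, both under the same symbol. The first IL1A row measured 36.6, 42.4 and 38.3 FPKM in shCtr and 13.4, 8.41 and 14.2 FPKM in shZNF148. Every shZNF148 library was below every shCtr library, and the shZNF148 mean was 30.7% of the shCtr mean (39.1 ± 2.99 FPKM, SD, n = 3). The second IL1A row measured 21.8, 26.9 and 19.2 FPKM in shCtr and 5.70, 0.292 and 4.30 FPKM in shZNF148. Replicate 2 of shZNF148 was close to 0 in this row, and the remaining libraries of the group stayed well above it. The log2 fold change was -1.65 (SE 0.18) for the first IL1A row and -2.71 (SE 0.59) for the second.

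The second row made up 37.3%, 38.8% and 33.4% of the IL1A sum in the shCtr libraries. In the shZNF148 libraries it made up 29.9%, 3.35% and 23.2%, so the rows did not keep one ratio. How the values were divided between rows of a shared symbol is not given in the sources used here. The sum is therefore given beside the rows, and whether it counts the same reads repeatedly is unknown. Summed over both rows, IL1A measured 58.4, 69.3 and 57.5 FPKM in shCtr and 19.1, 8.70 and 18.5 FPKM in shZNF148. The shZNF148 mean of 15.4 ± 5.84 FPKM (SD, n = 3) was 25.0% of the shCtr mean of 61.7 ± 6.59 FPKM, a log2 fold change of -2.00 (SE 0.28). In shCtr cells the IL1A sum was higher than 87.5% of the expressed rows, each taken singly, and in shZNF148 cells it was higher than 56.2%.

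IL1B, the ligand that caspase-1 cleaves into its active form, measured 26.2, 33.0 and 21.0 FPKM in shCtr and 5.44, 2.80 and 5.40 FPKM in shZNF148. The groups were far apart, with the lowest shCtr library above the highest shZNF148 library by a wide margin. The shZNF148 mean of 4.55 ± 1.52 FPKM (SD, n = 3) was 17.0% of the shCtr mean of 26.7 ± 6.00 FPKM, with a log2 fold change of -2.34 (SE 0.25). IL1B stood above 71.3% of the expressed rows in shCtr and above 23.3% in shZNF148. Together, IL1A and IL1B measured 84.6, 102 and 78.5 FPKM in shCtr and 24.5, 11.5 and 23.9 FPKM in shZNF148. IL1B made up 30.9%, 32.2% and 26.8% of that total in shCtr and 22.2%, 24.3% and 22.6% in shZNF148, so IL1A was the more abundant ligand transcript in every library.

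IL18, an IL-1 family ligand also cleaved by caspase-1, differed less. It measured 6.38, 5.19 and 5.38 FPKM in shCtr and 4.37, 3.88 and 4.63 FPKM in shZNF148. The shZNF148 values lay below the shCtr values without overlap, at 76.0% of the control mean (log2 fold change -0.33, SE 0.11). The alarmin IL33 and its receptor gene IL1RL1 were listed at 0 in all 6 libraries. The antagonist IL1RN was listed at 0 in all libraries but shCtr replicate 3, where it was at 0.0691 FPKM. A listed 0 is not proof of absence here, since 114 rows of the table were at 0 in one library and above 20 FPKM in another.

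**Figure D1:**
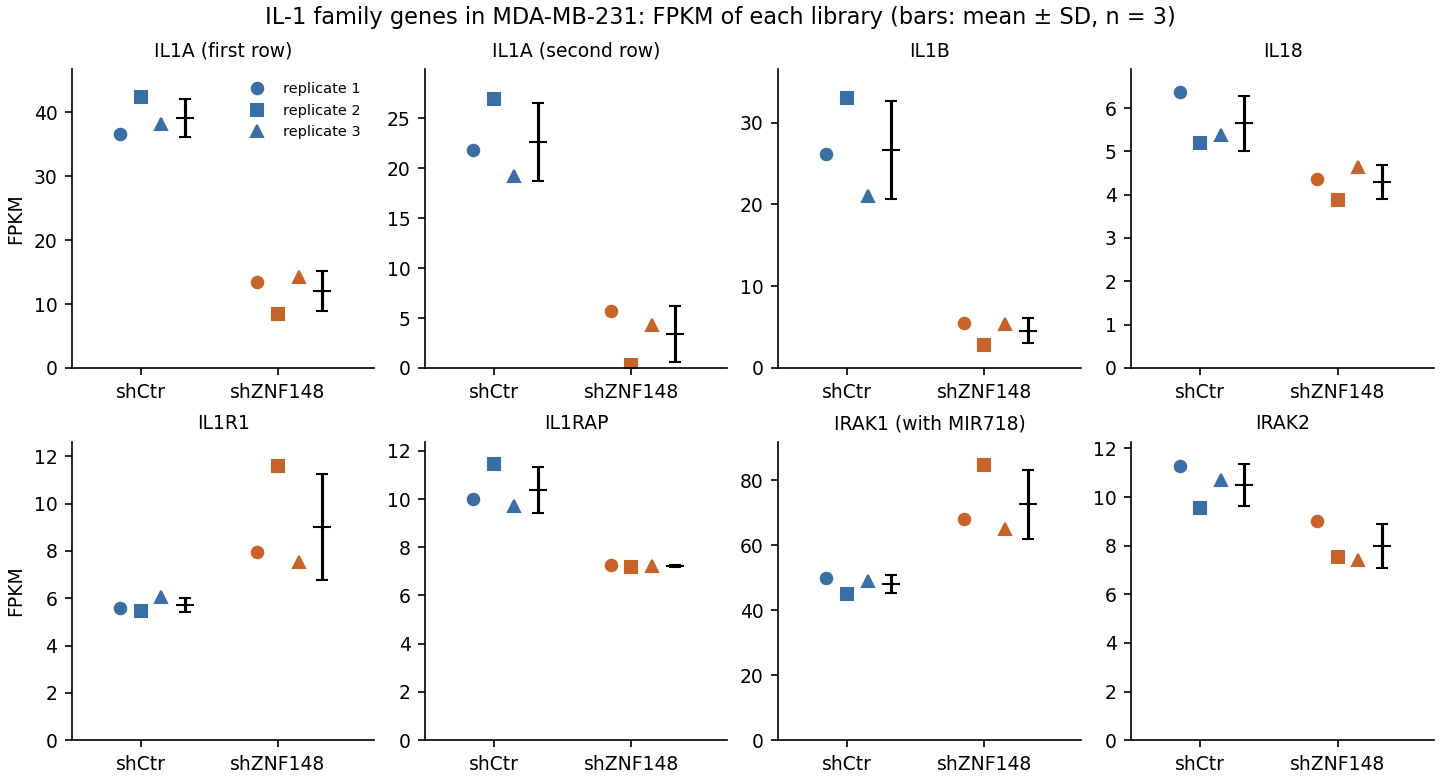
FPKM (y axes, linear from 0, scaled per panel) of the 8 expressed rows in each library, with shCtr in blue, shZNF148 in orange, marker shape giving the replicate and black bars the mean ± SD (n = 3). Both IL1A rows, IL1B, IL18, IL1RAP and IRAK2 lie lower in shZNF148 and IL1R1 and IRAK1 higher, and shZNF148 replicate 2 lies furthest from shCtr in 7 of the 8 panels.

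The chains of the IL-1 receptor differed in opposite directions. IL1R1, the ligand-binding chain, measured 5.60, 5.47 and 6.06 FPKM in shCtr and 7.97, 11.6 and 7.52 FPKM in shZNF148. It was higher in every shZNF148 library, most of all in replicate 2, and the mean was 1.58 times the control mean (log2 fold change 0.56, SE 0.16). IL1RAP, the accessory chain shared with the IL-33 and IL-36 receptors, measured 10.01, 11.5 and 9.69 FPKM in shCtr and 7.27, 7.19 and 7.24 FPKM in shZNF148. The shZNF148 libraries were nearly identical to each other (SD 0.0389 FPKM) and all below the controls, at 69.6% of the control mean (log2 fold change -0.47, SE 0.08). IL1R1 was the less abundant chain in each shCtr library and the more abundant one in each shZNF148 library. In shZNF148 the excess was clear only in replicate 2 (11.6 against 7.19 FPKM) and small in replicate 3 (7.52 against 7.24 FPKM) and replicate 1.

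The kinases also differed in opposite directions. IRAK1, recruited to the receptor through MYD88, was measured in a row shared with the microRNA gene MIR718, at 50.0, 45.0 and 49.1 FPKM in shCtr and 68.0, 84.7 and 64.9 FPKM in shZNF148. The groups did not overlap, and shZNF148 was 1.51 times the control mean (log2 fold change 0.58, SE 0.11). IRAK2, which sustains the later part of the signal, measured 11.3, 9.55 and 10.7 FPKM in shCtr and 9.03, 7.53 and 7.42 FPKM in shZNF148. Its highest shZNF148 library was just below its lowest shCtr library, and the mean was 76.1% of control (log2 fold change -0.36, SE 0.10).

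Ordered by mean FPKM, with IL1A summed over its rows and IRAK1 in its shared row, the shCtr cells held most IL1A. It was followed by IRAK1, IL1B, IRAK2, IL1RAP, IL1R1 and IL18. The first IL1A row alone (39.1 FPKM) lay below IRAK1 (48.0 FPKM). IRAK2 (10.5 ± 0.873 FPKM) and IL1RAP (10.4 ± 0.949 FPKM) did not differ beyond their spread, nor did IL1R1 (5.71 ± 0.313 FPKM) and IL18 (5.65 ± 0.638 FPKM). In shZNF148 cells the order was IRAK1, IL1A, IL1R1, IRAK2, IL1RAP, IL1B and IL18. There, IL1R1 (9.03 ± 2.24 FPKM) overlapped with IRAK2 (7.99 ± 0.898 FPKM), and IL1B overlapped with IL18 (4.29 ± 0.383 FPKM). The IL1A sum also overlapped with IL1R1 and with IRAK2. In shZNF148 replicate 2 it was 8.70 FPKM, below IL1R1 at 11.6 FPKM.

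Of the 11 member rows, 8 rows of 7 genes had a mean of at least 1 FPKM and entered the fit of all 11777 such rows. Both IL1A rows and IL1B passed the threshold for a lower value (limma adjusted p under 0.05 and over 1.5-fold), as did 3.66% of all rows tested, and 0 member rows passed for a higher value, against 1.83% of all rows. The values of shCtr and shZNF148 did not overlap in all 8 rows, nor did they in 41.0% of all rows tested. Because the genes were chosen on this contrast, these counts are a description and nothing is read from them. The second IL1A row did not pass with a pseudocount of 0.1 FPKM, with no filter, with replicate number as a block, or without shCtr replicate 2, shZNF148 replicate 1 or shZNF148 replicate 3. The shZNF148 means of IRAK1 and IL1R1 were 1.51 and 1.58 times the control means, but both rows were under 1.5-fold on log2(FPKM + 1). IRAK1 passed as higher with a pseudocount of 0.1 FPKM, with quantile normalization and without shZNF148 replicate 3. Without shCtr replicate 1 or shCtr replicate 3, 0 member rows passed, and the rows of the whole table that passed as lower went from 431 to 26 and to 19. The differences kept their direction in every fit that left out 1 of the 6 libraries. That was fixed in advance, because the groups do not overlap in these rows. Over those fits IL1B ranged from -2.49 to -2.09 on the log2 scale.

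**Figure D2:**
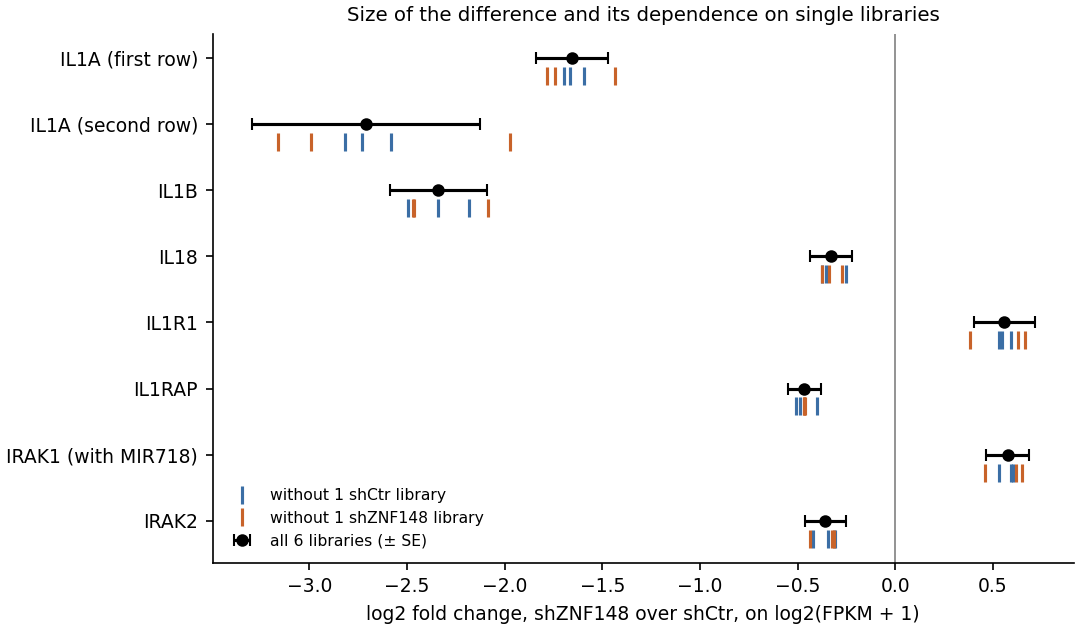
Log2 fold change of shZNF148 over shCtr on log2(FPKM + 1) (x axis) for the 8 expressed rows, with black points and bars giving the value and SE from all 6 libraries and coloured ticks the value with 1 library left out (blue, a shCtr library; orange, a shZNF148 library). No tick can cross 0, since the groups do not overlap in these rows, and the second IL1A row has the widest range, from -3.16 to -1.97.

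IL1A (chr2:112773925-112784493, GRCh38, minus strand), IL1B (chr2:112829751-112836816, minus strand) and IL1RN (chr2:113099315-113134016, plus strand) lie in one cluster with the IL-36 and IL-37 genes, and IL1R1 (chr2:102064544-102179874) and IL1RL1 (chr2:102311502-102352037), both on the plus strand, lie in a second cluster on the same chromosome. IL1RAP (chr3:190514051-190659750, plus strand), IRAK2 (chr3:10164919-10243745, plus strand), IL33 (chr9:6215786-6257983, plus strand), IL18 (chr11:112143253-112164096, minus strand) and IRAK1 (chrX:154010506-154019902, minus strand) lie elsewhere. The genes inside the 2 clusters and the 5 nearest protein-coding genes on each side were compared, leaving out the members. Of the 28 such genes found, 10 were expressed, and 0 passed the threshold by limma. Over all rows tested, 3.66% passed as lower and 1.83% as higher, so 0 in a list this short is not read as a result. An unadjusted p under 0.05 was reached by 5, and its share over all rows is not given here. The groups did not overlap in 5 of the 10, nor did they in 41.0% of all rows tested. The median log2 fold change was 0.20, against 0.01 over all rows. CKAP2L, a mitotic spindle gene next to IL1A, measured 57.5, 65.9 and 63.2 FPKM in shCtr and 48.9, 43.4 and 51.7 FPKM in shZNF148. Its groups did not overlap (log2 fold change -0.37, SE 0.09, adjusted p = 0.0411), a difference of less than 1.5-fold. SLC20A1, a phosphate transporter gene on the same side, differed by 0.22 (adjusted p = 0.0556), POLR1B by 0.15 (adjusted p = 0.381) and CHCHD5 by -0.02 (adjusted p = 0.928).

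On the far side of the IL1A cluster, PAX8 differed by 0.32 (adjusted p = 0.26) and ZNG1B, listed under the older symbol CBWD2, by 0.24 (adjusted p = 0.612). Around IL1R1, MAP4K4 differed by 0.34 (adjusted p = 0.0905), RNF149 by 0.28 (adjusted p = 0.114), CNOT11 by 0.17 (adjusted p = 0.127) and SLC67A2 by 0.08 (adjusted p = 0.662), all on the log2 scale. The expressed genes around IL1R1 were higher on average in shZNF148, but none passed. IL1R2, the decoy receptor that binds IL-1 without signalling, was listed at 0 in the 3 shCtr libraries and at 0.412, 0.0833 and 0.231 FPKM in the shZNF148 libraries, too low to be tested.

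**Figure D3:**
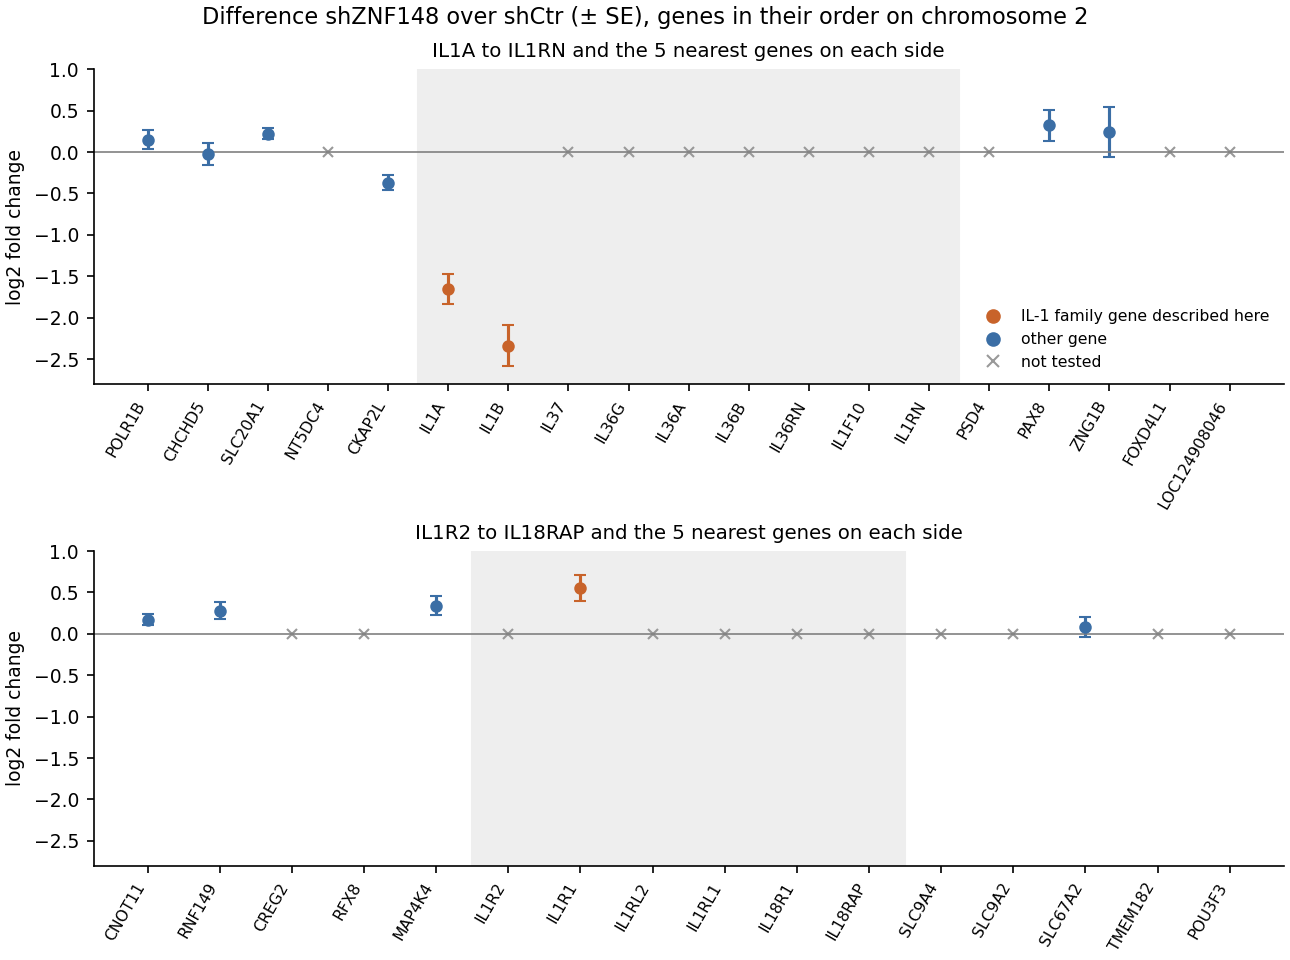
Log2 fold change of shZNF148 over shCtr on log2(FPKM + 1) (y axes, ± SE) for genes in their order along chromosome 2, with the IL-1 ligand cluster in the upper panel and the receptor cluster in the lower (grey areas mark the clusters, crosses the genes too low to test or not in the table). IL1A, drawn by its first row, and IL1B stand far below the expressed neighbours in the upper panel, which lie between -0.37 and 0.32.

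Of the 14 other ligands and receptors of the family, 3 were expressed and 0 passed by limma, against 3.66% of all rows tested as lower and 1.83% as higher. An unadjusted p under 0.05 was reached by 1, and its share over all rows is not given here. The groups did not overlap in 1 of the 3, nor did they in 41.0% of all rows tested. IL1RAPL1, a receptor chain known from neurons, measured 6.39, 5.78 and 5.94 FPKM in shCtr and 3.65, 4.42 and 4.78 FPKM in shZNF148 (log2 fold change -0.42, SE 0.11, adjusted p = 0.0494, under 1.5-fold). The inhibitory receptor SIGIRR differed by -0.28 (adjusted p = 0.3) and IL18BP, the secreted inhibitor of IL-18, by 0.05 (adjusted p = 0.875).

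Signalling genes downstream of the receptor showed no common direction. Of 27 listed, 25 were expressed, with 15 higher and 10 lower and a median log2 fold change of 0.06. By limma 1 passed as higher (1.83% of all rows tested) and 1 as lower (3.66% of all rows tested). In 9 of the 25 rows the groups did not overlap, against 41.0% of all rows tested. MAP3K8, a kinase upstream of ERK, rose from 5.68, 4.88 and 6.45 FPKM to 8.83, 11.1 and 10.6 FPKM (log2 fold change 0.75, SE 0.13, limma adjusted p = 0.0201). IRAK3, the family member that restrains IRAK signalling, fell from 2.70, 3.11 and 2.73 FPKM to 1.60, 0.802 and 1.63 FPKM (log2 fold change -0.73, SE 0.17, adjusted p = 0.0405). In both genes the groups did not overlap. Neither call was stable to single libraries, since MAP3K8 did not pass without shCtr replicate 1, 2 or 3 (adjusted p up to 0.0947) and IRAK3 did not pass without any one of the 6 libraries (adjusted p from 0.0287 to 0.123, at under 1.5-fold without shZNF148 replicate 2). The most abundant genes that did not pass were UBE2V1 in a shared row (log2 fold change 0.05), MAPK14 (0.26, adjusted p = 0.0391, under 1.5-fold) and MAP2K3 (-0.11).

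Genes for the maturation and release of IL-1 were also mixed. A total of 20 of 28 listed rows were expressed, 9 higher and 11 lower, with a median of -0.08. By limma 0 passed the threshold, while 8 had an unadjusted p under 0.05, whose share over all rows is not given here. The groups did not overlap in 11 of the 20 rows, nor did they in 41.0% of all rows tested. CASP1, the gene of the enzyme that cleaves IL-1β and IL-18, was measured in a row shared with CARD17 at no more than 0.502 FPKM. The 3 most abundant genes were ANXA2 (log2 fold change -0.19, adjusted p = 0.114), CAPNS1 (-0.12, adjusted p = 0.236) and CAPN2 (-0.10, adjusted p = 0.231), the latter being subunits of calpain, the protease that cleaves IL-1α. Chosen after their values were seen, NLRP1 in a shared row (-0.58, adjusted p = 0.0172) and GSDME (-0.53, adjusted p = 0.0132) came nearest, both under 1.5-fold on log2(FPKM + 1), although the ratio of the NLRP1 group means was 1.54. GSDME passed without shCtr replicate 2 and NLRP1 passed without shZNF148 replicate 3.

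Of 44 genes known to respond to IL-1, 30 rows were expressed, with 19 lower and 11 higher and a median log2 fold change of -0.29, against 0.01 over all rows. The groups did not overlap in 18 of the 30 rows (41.0% of all rows tested), and 6 fell (3.66% of all rows) and 2 rose (1.83% of all rows). This list was drawn up with results of these libraries known and is not independent evidence of a direction. IL6, an acute-phase cytokine, fell from 32.6, 28.1 and 28.4 FPKM to 13.97, 12.5 and 12.2 FPKM (log2 fold change -1.14, SE 0.09, limma adjusted p = 0.00475). The adhesion gene ICAM1 fell from 128, 131 and 117 FPKM to 65.1, 54.3 and 60.4 FPKM (-1.05, SE 0.09, adjusted p = 0.00529). The collagenase gene MMP1 fell from 19.7, 15.6 and 14.7 FPKM to 4.56, 3.03 and 4.28 FPKM (-1.84, SE 0.16, adjusted p = 0.00657). These 3 genes passed without any one of the 6 libraries, with adjusted p up to 0.0476.

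The neutrophil chemokine CXCL8, listed as IL8, fell from 110, 101 and 95.0 FPKM to 51.2, 24.9 and 57.0 FPKM (log2 fold change -1.27, SE 0.29, limma adjusted p = 0.0379). SOD2, the mitochondrial superoxide dismutase, fell from 59.0, 69.6 and 50.7 FPKM to 35.3, 31.3 and 31.8 FPKM (-0.84, SE 0.12, adjusted p = 0.015). The iron-carrier gene LCN2 fell from 152, 404 and 182 FPKM to 71.6, 65.1 and 68.4 FPKM (-1.70, SE 0.34, adjusted p = 0.0283), with shCtr replicate 2 far above the rest. CXCL8 did not pass without shCtr replicate 1, 2 or 3 or shZNF148 replicate 1 (adjusted p up to 0.136), and SOD2 did not without shCtr replicate 1 or 3 (adjusted p up to 0.0847). LCN2 passed only when the library left out was shCtr replicate 2 (adjusted p up to 0.0921 otherwise).

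The 2 genes that rose were CSF1, the macrophage growth factor, and EREG, an EGF receptor ligand. CSF1 measured 109, 113 and 101 FPKM in shCtr and 223, 322 and 180 FPKM in shZNF148 (log2 fold change 1.12, SE 0.20, limma adjusted p = 0.0223). EREG measured 6.28, 10.7 and 6.67 FPKM in shCtr and 14.2, 18.8 and 13.8 FPKM in shZNF148 (0.92, SE 0.21, adjusted p = 0.0356). CSF1 did not pass without shCtr replicate 1, 2 or 3 or shZNF148 replicate 1 (adjusted p up to 0.0973), and EREG passed only when shCtr replicate 2 was left out (adjusted p up to 0.129 otherwise). Of the most abundant genes that did not pass, PLAU differed by -0.30 (adjusted p = 0.0313, under 1.5-fold), SAA1 by -0.45 (adjusted p = 0.223) and PLAUR by 0.13 (adjusted p = 0.575). The count of 8 genes went to 3 without shCtr replicate 1 or 3 and to 4 without shZNF148 replicate 1. Many of these genes also respond to other signals, and the part of IL-1 itself in their values was not tested.

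**Figure D4:**
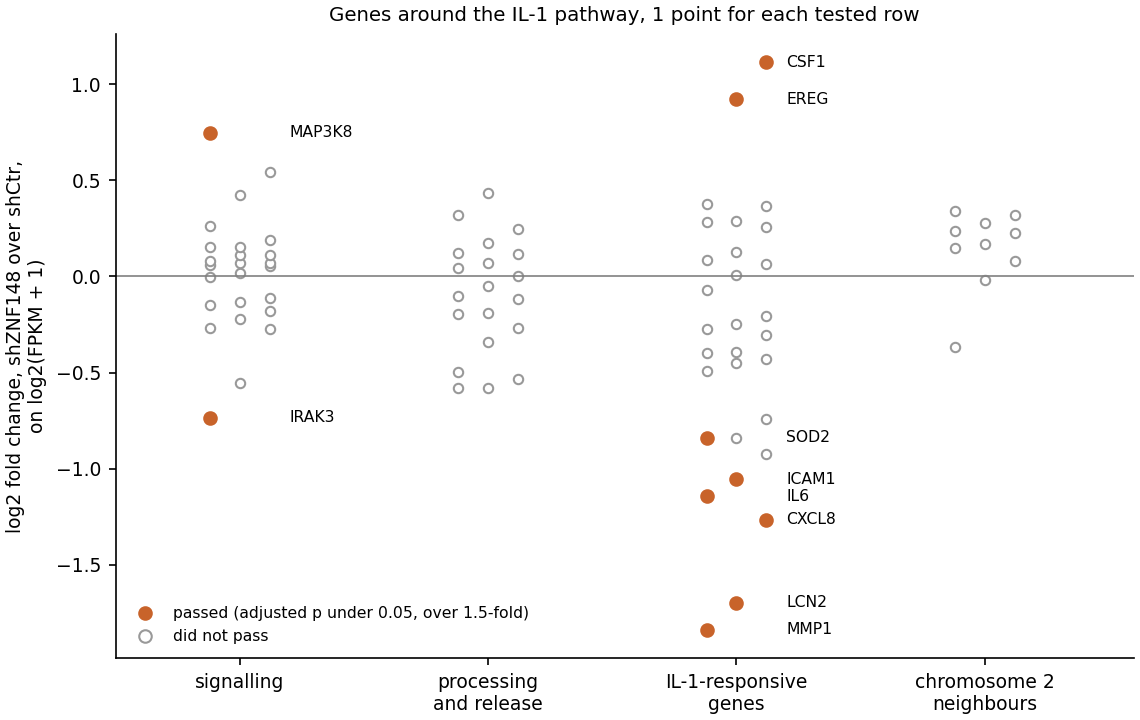
Log2 fold change of shZNF148 over shCtr on log2(FPKM + 1) (y axis), 1 point for each expressed row of the signalling, processing and release, IL-1-responsive and chromosome 2 neighbour lists, with named orange points passing the limma threshold. The responsive genes spread from -1.84 (MMP1) to 1.12 (CSF1) with 6 named points below 0 and 2 above, and 0 points of the processing or neighbour lists are named.

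The rows most like IL1B and IL1A across the 6 libraries were found by Pearson correlation of log2(FPKM + 1), a description in which the points share 2 groups that stand apart. For IL1B these were MID1IP1 (r = 1.00), SERPINB1 (0.999), ANKRD13A (0.999), ZCCHC7 (0.998) and CSNK2A1P (0.998). For the first IL1A row they were EIF4B (1.00), NNMT (0.999), NT5E (0.998) and CD55 (0.998). Of these named rows only NNMT, a nicotinamide methyltransferase gene, differed by as much as the ligands, at 36.7, 49.5 and 38.1 FPKM in shCtr and 9.20, 4.55 and 9.30 FPKM in shZNF148. The other named rows had log2 fold changes between -1.10 (CD55) and -0.28 (CSNK2A1P).

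Among markers of other cell types, 3 of 10 myeloid genes were expressed. CD68, a lysosomal protein gene, was abundant, from 110 to 128 FPKM in shCtr and from 72.8 to 86.1 FPKM in shZNF148 (log2 fold change -0.52, limma adjusted p = 0.0233, under 1.5-fold). CSF1R rose from 1.66, 2.86 and 2.06 FPKM to 4.24, 3.77 and 3.87 FPKM (log2 fold change 0.65, limma adjusted p = 0.0402), and LYZ rose from 0.598, 0.471 and 0.812 FPKM to 2.34, 4.97 and 2.23 FPKM (1.31, adjusted p = 0.0267). With replicate number as a block neither passed (adjusted p = 0.0831 and 0.063). CSF1R passed only when the library left out was shCtr replicate 2 (adjusted p up to 0.128 otherwise), and LYZ did not pass without shCtr replicate 1, 2 or 3 or shZNF148 replicate 1 (adjusted p up to 0.103). The part of these markers in the members' differences was not tested. The summed myeloid level ran from 115 to 134 FPKM in shCtr and from 79.9 to 97.2 FPKM in shZNF148, nearly all of it CD68, while AIF1 was listed at 0 in every library and PTPRC was at 0 in every shZNF148 library. The 6 lymphoid genes summed to at most 0.585 FPKM, and none was expressed. Of the 6 stroma and endothelium genes only PDGFRB was expressed (log2 fold change -0.47, adjusted p = 0.313), and the list summed to between 2.09 and 8.66 FPKM.

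The hairpin's listed target, cccttggtgaatgtaaatgat, was also compared with the members. Bases 2 to 8 of a guide complementary to it would pair with the word TAAATGA. That word occurred 1 time in the 3′ UTR of IL1A, IL1B, IL1R1, IL1RAP and IL33 and 0 times in that of the other members, and it occurred in 22.4% of the 3′ UTRs of tested genes. The members with the word were found among those lower in shZNF148 (IL1A, IL1B, IL1RAP) and among those higher (IL1R1), and the full target matched none of these 3′ UTRs. A word match is a description of the sequence, and the hairpin's part in the differences was not tested.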

How the data were processed

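RNA-seq libraries from 3 shCtr and 3 shZNF148 replicates of MDA-MB-231 cells were compared. The authors deposited 1 table of FPKM values, 1 column for each library. Per the submitters' processing notes, the tools were bcl2fastq 2.17.1.14, TopHat2 2.0.14, Cufflinks 2.2.1 and Cuffnorm 2.2.1, with builds hg18 and hg19 named, whereas the paper's methods name Salmon and GRCh38. Which of these made the FPKM values, and how libraries were scaled, is not given in the sources used here. Read counts could not be recovered, so no count test was run and the depth behind single values is unknown.

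Values were used as log2(FPKM + 1), which understates the change of low genes. The 11777 of 24108 rows that averaged 1 FPKM or more across libraries were modelled in R 4.3.3 using limma 3.58.1 (condition only, eBayes with trend, Benjamini-Hochberg adjustment over all tested rows). A row passed at an adjusted p under 0.05 and over 1.5-fold. The labels do not say that replicates were separate cultures, so p-values measure only the spread between these libraries. Over all tested rows, same-numbered replicates did not deviate together (correlations 0.00, -0.09 and 0.03), so replicate number was not a term. Single rows can still follow replicate number, as ERBB2 did in replicate 2 of both groups.

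The members and the gene lists were chosen with earlier results of these data known. Named genes were every member row, ZNF148, the passing genes of each list up to 8, the 3 most abundant that did not pass, expressed neighbours, and the 5 rows most correlated with IL1B and with IL1A. Of these correlated rows, 1 is not reported here. A few rows that join several symbols are named by the listed one. Older symbols were matched through gene name tables, with coordinates and 3′ UTRs from GENCODE release 44 (GRCh38), and upstream sequences from RefSeq. The fit was tested on simulated data. Alternatives covered the pseudocount, the filter, the scaling, the replicate block, the variance trend, summing rows by symbol and leaving out each library.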

Additional observations from a re-analysis of the deposited data

How the results depend on the processing

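Each expressed member row kept its direction under every alternative in which it could be fitted. Because the groups do not overlap in these rows, this was fixed in advance for all alternatives but those of the scaling. The pseudocount moved the second IL1A row and IL1B most, with the second IL1A row at -3.39 and -1.77 and IL1B at -2.57 and -1.73 with 0.1 and 5 FPKM. Of all rows, 216 passed as higher and 431 as lower. These counts were 76 and 204 with a pseudocount of 5 FPKM and ranged from 3 to 209 and from 19 to 393 when each library was left out. ZNF148 ranged from -1.74 to -1.45 over those fits. The signalling list, with 2 genes passing, gave 0 with a pseudocount of 5 FPKM, 1 with a mean of at least 5 FPKM or no filter, and 0 to 3 without each library. The processing and release list, with 0, gave 1 with a pseudocount of 0.1 FPKM or quantile normalization and 0 to 1 without each library. The IL-1-responsive list, with 8, gave 3 to 7 without each library and 6 to 8 otherwise. The neighbours gave 0 throughout. CXCL8 and EREG did not pass without the filter on low values (adjusted p = 0.0577 and 0.0556).

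With replicate number as a block, 99 rows passed as higher and 216 as lower, and 0 signalling genes passed. The adjusted p with the block was 0.0619 for CXCL8 and 0.0586 for LCN2. It was 0.0831 for CSF1R, 0.063 for LYZ and 0.0619 for EGFR, and 2 member rows passed as lower in place of 3. Fewer residual degrees of freedom remain in such fits and in those without a library, and the cause of each lost call was not tested. With 3 libraries per group, differences smaller than the spread of 1 divergent library, such as shZNF148 replicate 2, cannot be resolved, and low FPKM values have an unknown read number behind them.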
